A study of Mus musculus with 2 samples.

Results

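The septin family was examined as 10 genes, *Sept2* to *Sept11*, taken by symbol from the count tables of both libraries, out of 24411 genes listed there. RNA of the mouse brain at embryonic day 16.5 was measured by laser capture microdissection (LCM), in which stained areas are cut out of a tissue section with a laser, followed by bulk RNA-seq. The subventricular zone (SVZ) is a layer near the ventricle where neurons are born. The cortex is given in the series design as the cortical plate, the outer layer in which young neurons settle. There were 2 libraries, 1 from the SVZ and 1 from the cortex. Both came from fresh frozen embryonic brain after timed mating, with no treatment given in the labels, on a slide adjacent to the one used for the study's own spatial method, for which these libraries served as the benchmark. Genotype, strain and the number of embryos are not stated in the sample labels, and neither are the number and size of the cut areas. The SVZ library held 51435667 gene-assigned reads and the cortex library 22050693, so that 1 read was worth 0.0194 and 0.0454 CPM, that is, counts per 1000000 gene-assigned reads. SVZ and cortex stand for these libraries in what follows. With 1 library per area there was no replicate check and no test between the areas. Each ratio is given with an exact 95% Clopper-Pearson interval, which covers the counting error of reads only. It leaves out the spread between animals or captures. It also treats every read as a separate RNA molecule, although PCR copies could not be told apart and removed. By the paper's account, the RNA going into library preparation was 1 ng. The error in counting molecules may therefore be wider than any interval given here, and how much wider was not tested.

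Septins are GTP-binding proteins that join end to end into rods and filaments, often called the fourth component of the cytoskeleton. The rods form rings and collars at the cleavage furrow of dividing cells, at the base of cilia and dendritic spines and at axon branch points, and septins bind membranes, actin and microtubules there. The mammalian genes fall into homology groups named SEPT2, SEPT3, SEPT6 and SEPT7. A rod takes its subunits from these groups in a fixed order, and members of the same group can stand in for one another at a given place. In developing brain septins are known from progenitor division, neuronal migration, neurite growth and the presynaptic terminal.

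The GTP-binding P-loop is encoded by all 10 members, and its sequence is shown for *Sept7* and for 3 pairs from the same homology group whose members lay on opposite sides of the comparison below. The sequences come from GENCODE M21 transcripts on GRCm38 and run 5′ to 3′ on the coding strand. Capitals mark the 24 bases that encode the P-loop, with 18 bases on either side.
Sept2: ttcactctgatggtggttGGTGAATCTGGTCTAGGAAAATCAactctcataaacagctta
Sept5: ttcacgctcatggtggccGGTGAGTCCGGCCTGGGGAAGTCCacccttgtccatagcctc
Sept3: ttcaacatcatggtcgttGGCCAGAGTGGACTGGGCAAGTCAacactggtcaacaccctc
Sept9: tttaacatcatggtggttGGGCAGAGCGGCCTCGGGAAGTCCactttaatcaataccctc
Sept6: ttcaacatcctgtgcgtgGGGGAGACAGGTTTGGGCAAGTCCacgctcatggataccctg
Sept10: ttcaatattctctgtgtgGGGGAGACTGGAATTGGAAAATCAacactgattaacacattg
Sept7: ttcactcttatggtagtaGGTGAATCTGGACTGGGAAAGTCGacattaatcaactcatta

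Each of these stretches lies in coding exons and crosses 1 exon junction. The *Sept2* stretch spans chr1:93491259-93495619 on the plus strand with its intron included, *Sept5* chr16:18625215-18625363 on the minus strand, *Sept6* chrX:36966751-36975081 on the minus strand and *Sept10* chr10:59192321-59192716 on the minus strand. The *Sept3* stretch lies at chr15:82279588-82283099, *Sept9* at chr11:117351602-117352189 and *Sept7* at chr9:25265478-25277584, all on the plus strand. In all 10 members the junction fell at the same place, after base 19 of the 60, within the first codon of the P-loop. Over the 60 bases *Sept2* and *Sept5* had 41 identical bases, *Sept3* and *Sept9* 47, and *Sept6* and *Sept10* 42. Over the whole aligned coding sequence the members of a group were 65.1% to 75.1% identical in 10 pairs, against 58.2% to 67.8% in the 35 pairs between groups. The longest stretch of identical bases was 41, between *Sept4* and *Sept5*, which is shorter than the 75-nt reads, and no 75-base window of any member occurred in another septin's annotated transcripts. A full-length read of one member therefore matched no annotated transcript of another exactly. All 10 genes are annotated as protein coding. *Sept4*, *Sept8* and *Sept9* lie on chromosome 11, *Sept6* on the X chromosome, and every other member on a chromosome of its own.

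All 10 septins passed a mean of 1 CPM over both libraries. *Sept10* and *Sept8* were at least 2-fold higher in the SVZ, where 20.0% of the 12738 genes that reached this mean passed the same rule. *Sept5* and *Sept6* were at least 2-fold higher in the cortex, against 15.6% of all genes. The other 6 members lay within 2-fold. Counting every size of difference, 7 members were higher in the SVZ, against 54.9% of all genes, and *Sept3*, *Sept5* and *Sept6* were higher in the cortex. The intervals of all 10 ratios excluded 0 on the log2 scale, as did those of 86.8% of all genes. The median log2 ratio of SVZ over cortex was 0.50 over the members and 0.11 over all genes, whose quartiles were -0.56 and 0.76. Summed over the family, 175916 reads in the SVZ against 60084 in the cortex gave 3420 and 2725 CPM, a difference of 1.26-fold. The ratio of such a sum always lies within the range of its members' ratios and mostly follows those with the most reads, such as *Sept2*. In bulk samples such as these, fewer cells of a type and less RNA per cell cannot be told apart.

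**Figure D1:**
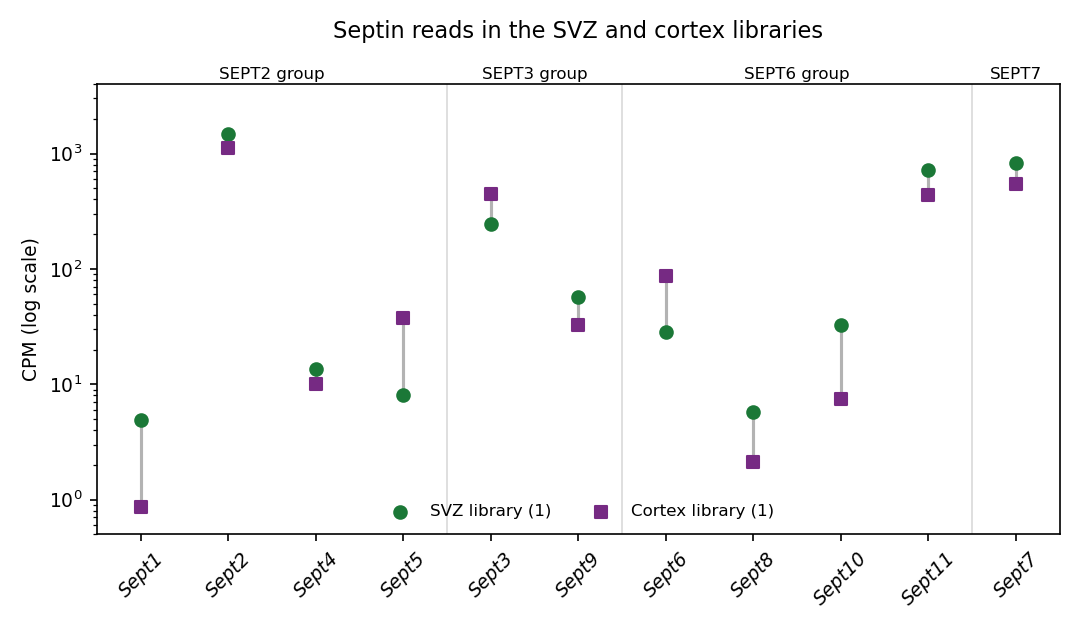
CPM (log scale) of the 10 members and of *Sept1* in the SVZ (green circles) and the cortex (purple squares), 1 library each, with a grey line joining the values of a gene and genes ordered by homology group. Squares lie above circles in *Sept5*, *Sept3* and *Sept6*, and circles above squares in the other 8 genes.

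Within the SEPT2 group, *Sept2* and *Sept5* lay on opposite sides. *Sept2*, known for its part in actin stress fibres, cytokinesis and the barrier at the base of cilia, had 76471 reads (1487 CPM) in the SVZ against 24624 reads (1117 CPM) in the cortex. It was 1.33-fold higher in the SVZ, a log2 ratio of 0.41 with an interval of 0.39 to 0.43. *Sept5*, abundant in neurons and platelets and known to bind syntaxin on synaptic vesicles, had the opposite order, with 415 reads (8.07 CPM) in the SVZ against 835 reads (37.9 CPM) in the cortex. It was 4.69-fold higher in the cortex (log2 ratio -2.23, interval -2.40 to -2.06), the lowest ratio of the family. *Sept4*, known from the sperm annulus and from a pro-apoptotic isoform, was a low-count gene here. It had 694 reads (13.5 CPM) in the SVZ against 223 reads (10.1 CPM) in the cortex, a log2 ratio of 0.42 with an interval of 0.20 to 0.64.

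The reading of *Sept5* carries a counting limit. Its exons overlap those of *Gp1bb*, a platelet glycoprotein gene on the same strand, over 1902 bases, or 48.6% of its exon bases, and STAR leaves reads that overlap 2 genes out of both counts. Under this annotation reads from that stretch enter neither count, so *Sept5* may be undercounted in both libraries. *Gp1bb* itself had 45 reads in the SVZ against 129 in the cortex, a log2 ratio of -2.74 (interval -3.26 to -2.24). Of the other platelet markers, *Gp9* had 0 reads in both libraries, *Pf4* 5 and 3, *Ppbp* 15 and 0, and *Itga2b* 86 and 33, in the SVZ and the cortex.

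Within the SEPT3 group, *Sept3* and *Sept9* also lay on opposite sides. *Sept3*, a neuronal septin found at presynaptic terminals, had 12554 reads (244 CPM) in the SVZ against 9894 reads (449 CPM) in the cortex. It was 1.84-fold higher in the cortex, a log2 ratio of -0.88 with an interval of -0.92 to -0.84, which is short of 2-fold. *Sept9*, widely expressed and needed for the last step of cytokinesis, had 2957 reads (57.5 CPM) in the SVZ against 726 reads (32.9 CPM) in the cortex. It was 1.75-fold higher in the SVZ (log2 ratio 0.80, interval 0.69 to 0.92).

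The SEPT6 group held the member with the highest ratio of the family and the second lowest. *Sept10*, one of the less studied septins, had 1680 reads (32.7 CPM) in the SVZ against 163 reads (7.39 CPM) in the cortex. It was 4.42-fold higher in the SVZ, a log2 ratio of 2.14 with an interval of 1.91 to 2.38. *Sept6*, which gave the group its name and is found in axons and at synaptic vesicles, had 1466 reads (28.5 CPM) in the SVZ against 1902 reads (86.3 CPM) in the cortex, and was 3.03-fold higher in the cortex (log2 ratio -1.60, interval -1.70 to -1.50).

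*Sept8*, described as a partner of the vesicle protein VAMP2, stood on the SVZ side with few reads. It had 294 reads (5.72 CPM) in the SVZ against 47 reads (2.13 CPM) in the cortex, and was 2.68-fold higher in the SVZ. Its log2 ratio of 1.42 had the widest interval of the family, 0.98 to 1.90, and the lower end fell just short of 2-fold. *Sept11*, known from dendrites and GABAergic synapses, was the group's most counted member. It had 37222 reads (724 CPM) in the SVZ against 9602 reads (435 CPM) in the cortex, 1.66-fold higher in the SVZ (log2 ratio 0.73, interval 0.70 to 0.77).

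*Sept7* is the single member of its group and is needed in every rod, so that its loss destabilises the other septins. It had 42163 reads (820 CPM) in the SVZ against 12068 reads (547 CPM) in the cortex. Its log2 ratio of 0.58 (interval 0.55 to 0.61) was close to *Sept2* and *Sept11*, the other members with the most reads on that side.

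**Figure D2:**
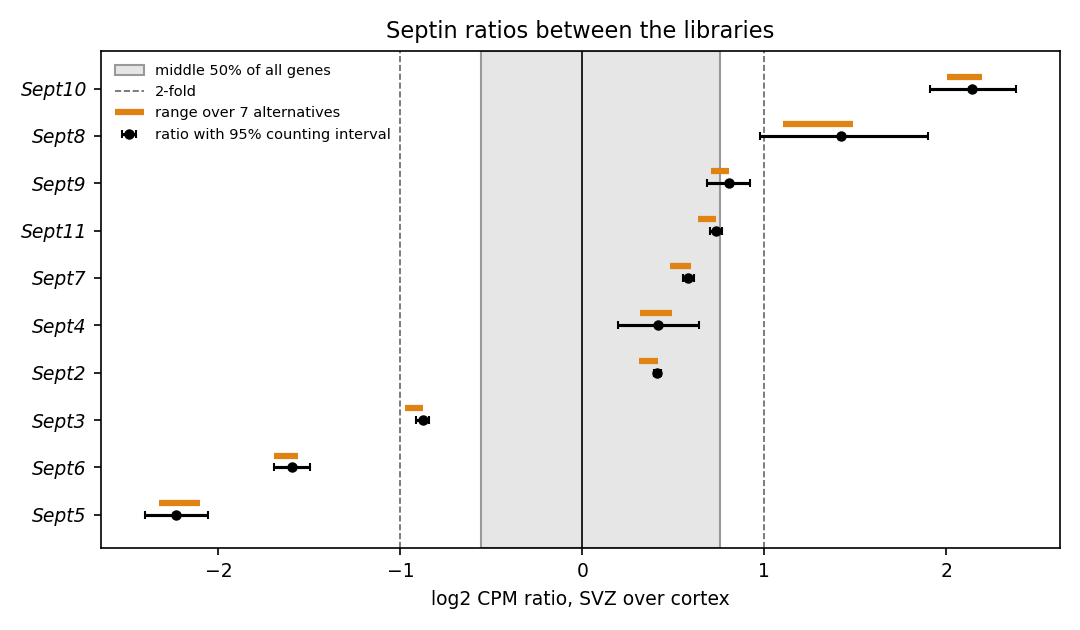
Log2 ratio of CPM in the SVZ over the cortex for each member (black points), with its 95% counting interval (bars) and the range over the main value and 7 alternatives in scaling, count column, depth and pseudocount (orange). The grey band holds the middle 50% of all genes, from -0.56 to 0.76, and the dashed lines mark 2-fold. *Sept10* and *Sept8* lie beyond the right line, *Sept6* and *Sept5* beyond the left one.

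Differences between members of the same group do not depend on how the libraries were scaled, since both genes were read in the same libraries. Of the 10 pairs within groups, 7 differed by more than 2-fold, as did 56.4% of all pairs of the 12738 genes, so that a difference of this size was common between genes. *Sept6* and *Sept10* stood farthest apart, by -3.74 on the log2 scale (interval -3.99 to -3.49), so that the ratio of *Sept6* to *Sept10* reads was 13.4 times higher in the cortex. The difference was -3.02 for *Sept6* minus *Sept8* and -2.33 for *Sept6* minus *Sept11*, which sets *Sept6* apart from all other members of its group. *Sept5* stood as clearly apart from both other members of the SEPT2 group, with a difference of 2.64 for *Sept2* minus *Sept5* (interval 2.47 to 2.81) and 2.65 for *Sept4* minus *Sept5*. *Sept3* minus *Sept9* was -1.68 (interval -1.81 to -1.56), a 3.21-fold difference.

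The pairs that lay on the SVZ side together differed less, which partly follows from grouping pairs by the sign of their ratios. *Sept10* minus *Sept11* was 1.41, *Sept8* minus *Sept10* was -0.72 (interval -1.22 to -0.22) and *Sept8* minus *Sept11* was 0.69 (interval 0.24 to 1.14). The ratios of *Sept2* and *Sept4* differed by -0.003, and the interval of -0.22 to 0.22 allows a difference of that size in either direction. A member higher in the cortex was thus present in the SEPT2, SEPT3 and SEPT6 groups, and each of these groups also held at least 1 member higher in the SVZ.

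Levels of different septins were compared per kilobase of exon, with the union of all annotated exons of GENCODE M21 as length. *Sept2* had the highest level in both libraries, 186 CPM per kilobase in the SVZ against 140 in the cortex. In the SVZ it was followed by *Sept11* (76.4), *Sept7* (70.5) and *Sept3* (36.9). The remaining members stood far lower there, from *Sept10* (10.5) through *Sept9* (7.60), *Sept4* (3.79), *Sept6* (2.88) and *Sept5* (2.06) down to *Sept8* (0.939). No neighbours in this order had overlapping counting intervals in the SVZ.

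In the cortex *Sept3* took the place behind *Sept2*, with 67.8 CPM per kilobase. *Sept7* (47.1) and *Sept11* (46.0) followed with overlapping counting intervals. *Sept5* (9.67) and *Sept6* (8.73) came next, also with overlapping intervals, ahead of *Sept9* (4.35). *Sept4* (2.84) and *Sept10* (2.38) overlapped as well, and *Sept8* (0.350) was again last. *Sept10* thus stood at place 5 of 10 in the SVZ and at place 9 in the cortex, while *Sept5* moved from place 9 to place 5. The order depends on the length used. *Sept5* was at place 7 in the SVZ when exon bases shared with *Gp1bb* and other counted genes were left out of the length (4.01 CPM per kilobase there and 18.8 in the cortex), and at place 6 in the cortex, behind *Sept6*, with the longest annotated transcript. On that last length *Sept7* (179 CPM per kilobase) stood ahead of *Sept11* (144) in the SVZ, and *Sept7* (120) ahead of *Sept3* (89.9) in the cortex.

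By homology group, the SEPT2 group made up 48.3% of septin reads per kilobase in the SVZ against 46.3% in the cortex. The SEPT3 group made up 11.2% and 21.9%, the SEPT6 group 22.8% and 17.5%, and *Sept7* 17.7% and 14.3%. The largest shift between the libraries was therefore in the SEPT3 group, carried by *Sept3*. Within the SEPT2 group *Sept5* held 1.07% in the SVZ against 6.34% in the cortex, with *Sept2* at 97.0% and 91.8%. Without the shared exon bases in its length *Sept5* held 2.06% and 11.6%, and with the longest transcripts 0.546% and 3.32%, a higher share in the cortex each time. Within the SEPT3 group *Sept9* held 17.1% and 6.03%. Within the SEPT6 group *Sept6* held 3.18% and 15.2%, *Sept10* 11.6% and 4.14%, and *Sept11* 84.2% and 80.1%. The members with the strongest contrasts, *Sept5*, *Sept6* and *Sept10*, were thus minor members of their groups by level, and *Sept2* and *Sept11* held most of theirs in both libraries.

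**Figure D3:**
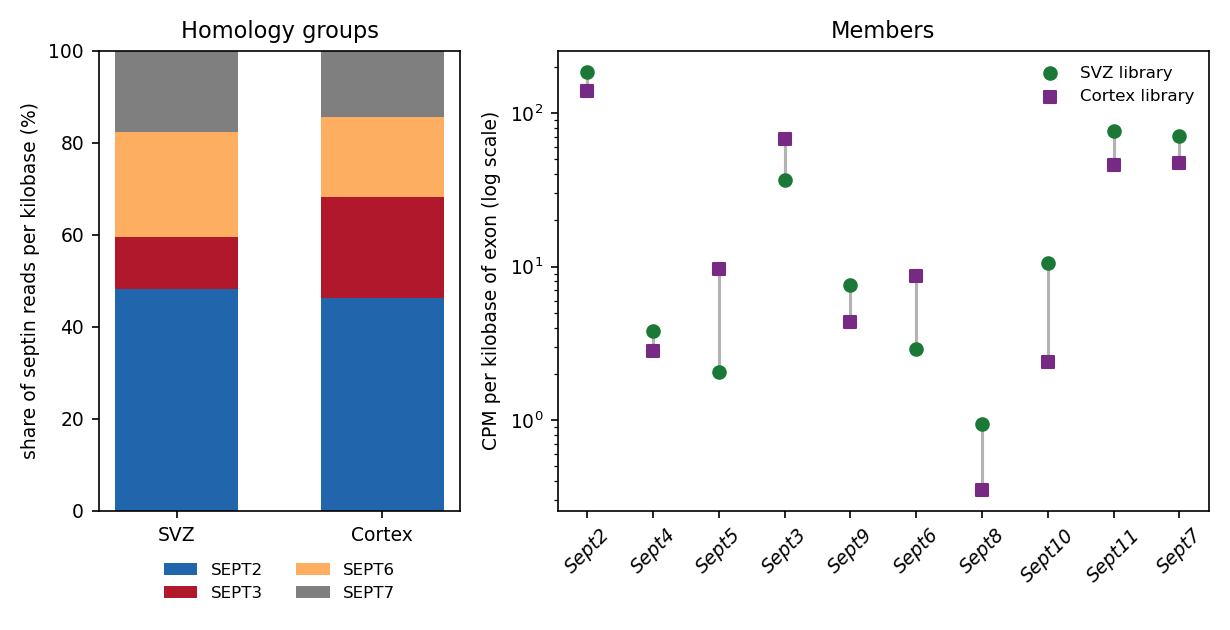
Left, share of septin reads per kilobase of exon (percent, stacked to 100) held by each homology group in each library, 1 library each. Right, CPM per kilobase of exon (log scale) of each member in the SVZ (green circles) and the cortex (purple squares). The SEPT3 share is 11.2% in the SVZ against 21.9% in the cortex, and *Sept2* has the highest level in both.

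3 further septins were listed in the count tables and were not among the members. *Sept1*, of the SEPT2 group and known mainly from lymphocytes, had 251 reads (4.88 CPM) in the SVZ against 19 reads (0.862 CPM) in the cortex, a log2 ratio of 2.50 with an interval of 1.83 to 3.26. *Sept12*, known from sperm, and *Sept14*, known from testis, had 0 reads in both libraries, which allows up to 0.0583 CPM in the SVZ against 0.136 CPM in the cortex for a count of 3 reads.

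The captures were checked against cell type markers. All 6 progenitor markers were higher in the SVZ, with a sum of 1415 CPM against 63.9 CPM. All 6 neuron markers were higher in the cortex, with 3330 against 8174 CPM and *Nefl* at 0 reads in the SVZ, so neuronal RNA was present in both captures. All 5 microglia markers were higher in the SVZ (35.6 against 4.81 CPM). The sum of the 4 astrocyte markers was 59.1 CPM in the SVZ against 0.272 CPM in the cortex, where *Aldh1l1*, *Aqp4* and *Gfap* had 0 reads. *Aldh1l1* alone gave 52.8 CPM of that SVZ sum. The choroid plexus sum was 247 CPM in the SVZ against 2.27 CPM in the cortex, where *Folr1* had 0 reads. *Ttr* alone gave 240 CPM of that SVZ sum.

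The summed levels of the remaining lists were below 100 CPM in both libraries. The sums were 64.4 and 55.6 CPM for endothelium, although 3 of its 5 markers were higher in the cortex. They were 91.2 and 63.2 CPM for mural cells and 12.1 and 12.0 CPM for the oligodendrocyte lineage. For erythroid cells they were 20.4 and 10.9 CPM, with *Alas2* at 761 and 165 reads and *Hba-a1* and *Hba-a2* at 0 reads in both libraries. Reads that map to several places are left out of the counts, so these 0 counts do not by themselves show absence. The sums were 2.94 and 7.48 CPM for platelets and megakaryocytes, with *Gp9* at 0 in both libraries and *Ppbp* at 0 in the cortex. *Gp1bb*, whose exons overlap those of *Sept5*, gave 0.875 and 5.85 CPM of these sums, and so most of the cortex sum. For meninges the sums were 3.99 and 8.80 CPM, with *Col1a1* at 0 in the SVZ. The part of each cell type in the septin ratios was not tested.

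Known partners of septins were read from 5 lists. The cytokinesis genes build the contractile ring and the midbody where septins assemble in dividing cells. Of these genes 8 of 10 were higher in the SVZ (54.9% of all genes), 7 of them at least 2-fold (20.0% of all genes). The median log2 ratio was 4.40, with the 0 cortex reads of *Cep55* set at 3. *Cep55*, which recruits the abscission machinery, had 3015 reads in the SVZ against 0 in the cortex. With the 0 set at a floor of 3 reads it was 431-fold higher in the SVZ (log2 ratio 8.75). The lower end of its interval was 8.45. *Kif23*, a midbody motor, had 59.0 CPM in the SVZ against 0.952 CPM in the cortex (log2 ratio 5.95). *Rhoa*, the small GTPase that starts the ring, had 285 and 151 CPM (log2 ratio 0.92). Of the listed non-muscle myosin heavy chain genes, *Myh10* lay on the cortex side with 156 and 201 CPM (log2 ratio -0.37). *Myh9* had 4.39 and 5.03 CPM, and its interval included 0 (log2 ratio -0.20, interval -0.53 to 0.14). The highest ratio among the 10 members, 2.14 for *Sept10*, lay above *Rhoa*, *Myh10* and *Myh9* and below the other genes of the list. Of those 7 genes the lowest was *Cit*, a kinase of the midbody, at 3.02, and *Sept1* (2.50) also lay below it. The 7 genes were set apart by their own ratios, so their distance from the septins partly follows from that choice.

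The genes of vesicle release lay on the other side. Of 8 SNARE machinery genes that averaged 1 CPM or more, all 8 were higher in the cortex, while 54.9% of all genes were higher in the SVZ. At least 2-fold higher in the cortex were 6 of the 8 (15.6% of all genes), and the median was -1.38. *Stx1a*, a plasma membrane SNARE, had 1.91 CPM in the SVZ against 22.4 CPM in the cortex (log2 ratio -3.56), and *Syt1*, the calcium sensor of release, had 16.5 and 187 CPM (log2 ratio -3.51). Among the factors that take SNARE complexes apart, *Nsf* had 28.4 and 42.0 CPM (log2 ratio -0.56) and *Napa* 200 and 233 CPM (log2 ratio -0.22). *Napb*, of the same class, was more than 2-fold higher in the cortex, with 29.2 and 70.2 CPM (log2 ratio -1.26). *Sept5*, at -2.23, lay within the range of this list, as did *Sept3* and *Sept6*. That range also holds the lower quartile of all genes, -0.56, so a place within it does not set these septins apart.

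The exocyst is a complex that tethers vesicles to the plasma membrane and binds septins. Of its 9 genes 8 were higher in the cortex, while 54.9% of all genes were higher in the SVZ. The median was -0.57, near the lower quartile of all genes (-0.56). At least 2-fold higher in the cortex were 2 of the 9, a share near the 15.6% of all genes. *Exoc6* had 9.27 and 45.1 CPM (log2 ratio -2.28) and *Exoc2* 53.5 and 113 CPM (log2 ratio -1.07). *Exoc4*, with 58.7 and 51.3 CPM, was the member higher in the SVZ (log2 ratio 0.19), and *Exoc8* had 52.6 and 55.7 CPM (log2 ratio -0.08, interval -0.18 to 0.02).

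Cdc42 and the Borg proteins, the effectors through which this GTPase acts on septin filaments, differed little between the libraries apart from 1 gene. *Cdc42* had 834 CPM in the SVZ against 971 CPM in the cortex (log2 ratio -0.22), *Cdc42ep3* 37.1 and 40.5 CPM (log2 ratio -0.12) and *Cdc42ep4* 23.2 and 30.3 CPM (log2 ratio -0.39). *Cdc42ep2* was the list gene at least 2-fold apart, with 2.53 and 14.7 CPM (log2 ratio -2.54). Over the 5 of 6 list genes that averaged 1 CPM or more, the median was -0.22, with 1 gene, *Cdc42ep1*, higher in the SVZ (2.06 and 1.27 CPM). Among other described septin binding proteins, *Map4*, a microtubule-associated protein, had 46.1 and 172 CPM (log2 ratio -1.90) and *Hdac6*, a tubulin deacetylase, 24.7 and 34.0 CPM (log2 ratio -0.46). *Kif17*, a dendritic motor, had 0 reads in the SVZ against 20 in the cortex.

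**Figure D4:**
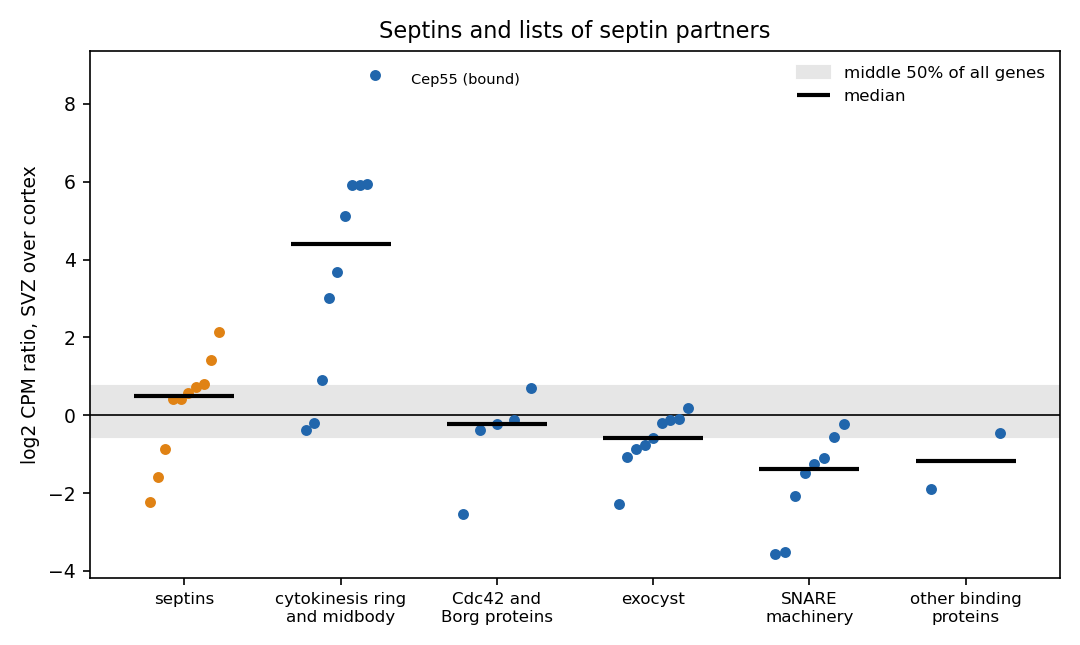
Log2 ratio of CPM in the SVZ over the cortex for the 10 septins (orange) and for genes that average 1 CPM or more in 5 lists of septin partners (blue), 1 point per gene, with medians as black lines and the middle 50% of all genes as a grey band. *Cep55* is drawn at its bound. Medians run from 4.40 for the cytokinesis list to -1.38 for the SNARE machinery, with the septins at 0.50 between them.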

How the data were processed

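The authors removed adapters with cutadapt 4.1, mapped read 1 of 75-nt pairs to mm10 (iGenomes annotation) with STAR 2.7.9a and deposited whole read counts per gene, unnormalized, in 1 unstranded and 2 stranded columns per library. The library kit keeps no strand. Reads that map to several places or overlap 2 genes are not in these counts, and PCR copies carry no identifiers. The deposited merged table also holds the authors' CPM, fold change and log10 ratio, which were not used.

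From the unstranded counts, CPM on gene-assigned totals and log2 ratios of SVZ over cortex were computed without a pseudocount. Counts of 0 were raised to a floor of 3 reads, and genes with no more than 3 reads in either library received no ratio. Intervals were exact Clopper-Pearson intervals for ratios, exact Poisson intervals for levels and large-sample intervals of the log odds ratio for pair differences (scipy 1.17.1). Calls were ratios of at least 2-fold in genes averaging 1 CPM or more, and the calculation was tested on simulated data. The simulated counts were independent Poisson counts without PCR copies or variation between captures or animals, so they checked the arithmetic only. Exon lengths, positions, overlaps and sequences came from GENCODE M21 (GRCm38), which is not the authors' annotation. Of 2 gene identifiers with the symbol *Sept2*, the one with the longer exon union was used. Shared 75-base windows were sought in annotated transcripts, not in the genome.

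The members and all lists were chosen with earlier results of these data known. All septins are named, and from each partner list the 2 highest and 2 lowest ratios in genes averaging 10 CPM or more, with other list genes where a count of 5 or fewer is given. *Cit* and *Napb* were named after their values were seen. Alternatives were TMM, upper-quartile and DESeq2 scaling (edgeR 4.0.16, DESeq2 1.42.0), totals without the 10 most counted genes, stranded columns, thinning to equal depth, a pseudocount of 1 CPM, other thresholds and other gene lengths.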

Additional observations from a re-analysis of the deposited data

Results flagged for a closer look

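*Sept6* drew reads in columns that the comparisons above do not use. The sum of its 2 stranded counts exceeded its unstranded count by 13 reads in the SVZ library and by 21 reads in the cortex library. Its exons share 308 bases (3.12%) with *Gm15008*, an annotated antisense gene, and reads there are left out of the unstranded count. These reads add to 1466 and 1902 reads. Since the library keeps no strand, reads of *Sept6* and of its antisense partner cannot be told apart there.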

How the results depend on the processing

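No paired analysis was possible because the SVZ and the cortex gave 1 library each, and for the same reason no replicate could be left out. Of the results that answer a comparison, 99 values under an alternative stayed within the limits set for them and 19 moved. For counts of septins the limit was 1.5 times the main value, so a cortex count of 3 was tallied as within it. Some alternatives could hardly move a value, such as dropping the expression minimum, which all 10 members passed. The ratios of single members were tallied apart, and 55 values stayed within the counting interval of the main ratio and 15 moved out of it. All that moved did so under other scalings and belonged to *Sept2*, *Sept3*, *Sept7* and *Sept11*, whose intervals are narrow. *Sept2*, for example, was at 0.31 with upper-quartile scaling, below its interval of 0.39 to 0.43. Of the septins, 2 were higher in the SVZ by 2-fold or more, a count that became 4 at a threshold of 1.5-fold and 1 at a threshold of 4-fold, with a minimum of 10 CPM or with the whole interval past the threshold. The count for the cortex was also 2 and became 3 at 1.5-fold, where *Sept3* joined, and 1 at 4-fold. The median of the cytokinesis list was 5.51 with a minimum of 10 CPM, which leaves fewer genes in it. With the longest transcript as length, the SEPT2, SEPT3, SEPT6 and SEPT7 groups made up 49.9%, 7.53%, 20.4% and 22.3% in the SVZ library and 48.9%, 15.2%, 17.1% and 18.9% in the cortex library. With exon bases shared with another counted gene left out of the length, an alternative added after the data were seen, the SEPT2 share was 48.5% in the SVZ library, and the cortex shares were 47.7%, 21.3%, 17.0% and 13.9%. Scaling by TMM, DESeq2 or upper-quartile factors moved the median of all genes by -0.093, -0.093 and -0.099, and no member changed sign under any alternative run. The ratio of *Sept8* ranged from 1.10 to 1.49 and was at its lowest with a pseudocount of 1 CPM. The 47 cortex reads of *Sept8* and 163 of *Sept10* limit the precision of their ratios most, and intervals say nothing of variation between embryos.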

Other observations

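In the merged table deposited with the libraries, no row carried a septin symbol. Of its 14240 rows, 23 carried a calendar date in place of a gene symbol, 12 of them a September date and 11 a March date. The counts of 11 September rows were equal to those of septins in the per-library tables, namely all 10 members and *Sept1*. The remaining September row held the counts of *Sep15*, a selenoprotein gene that is no septin, with 32997 SVZ reads and 7888 cortex reads (log2 ratio 0.84). 1 March date stood on 2 rows. A search of that table by septin symbol finds none of the members, and a search by September dates finds 1 gene from outside the family.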
